A study of Apis mellifera with 18 samples.

Results

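The genes described here are the 100 transcripts whose level in honeybee queen brains moved most closely with that of vitellogenin between pools of the same treatment. They were chosen from 15314 annotated genes in 18 RNA-sequencing libraries. For each gene and library, counts were expressed per 1000000 counts assigned to genes (CPM), log2(CPM + 1) was taken, and the mean of the library's own treatment group was subtracted. Among the 8571 genes with a mean of at least 5 CPM, Pearson's r of these deviations was computed with the row GB49544 (vitellogenin) and with the mean of 4 photoreceptor rows, GB45512 (ninaC), GB41297 (TRP), GB41758 (GNB1) and GB43718 (myosin-IIIb). Of these genes, 1326 had a higher r with vitellogenin than with the photoreceptor mean, and the 100 with the highest r with vitellogenin were kept, leaving out the 5 rows named by the rule. The deviations between libraries of a group are therefore what chose these genes and are given as description without a test. The differences between group means were not used in the choice, although the spread within groups was.

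The brains came from Apis mellifera ligustica queens collected 24 hours after artificial insemination, and the question was how seminal fluid changes their transcripts. Experiment 1 held a mock group, which went through the procedure with no fluid injected, a semen group and a group given seminal fluid freed of sperm. Experiment 2 held groups given Hayes saline, semen or seminal fluid, and the injected volume was 6 µl wherever fluid was given. Each of the 6 groups comprised 3 libraries, called replicates A, B and C, with the brains of 3 queens pooled in a library. All queens were virgins raised from larvae of a single colony, kept from natural mating flights and exposed to CO2 before and during the procedure, the controls included. The exposure on the day before served to activate the ovaries, and that during the procedure to sedate the queens. They were narcotised with CO2 again at collection. Brains were dissected with the optic lobes, and glandular tissue was removed. Mock insemination was done in Experiment 1 only and saline in Experiment 2 only, so the kind of control and the experiment cannot be told apart.

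Vitellogenin is the precursor of egg yolk protein, a large lipoprotein that the insect fat body makes and releases into the haemolymph, from which the ovary takes it up. In honeybees it is also known for its links with juvenile hormone, nutrition, ageing and the long life of queens. Its transcript is abundant in fat body, which also lies in the head around the brain. The name vitellogenin for GB49544 comes from the working description of this gene set, since no table used here pairs that identifier with a name.

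None of the 100 members could be named. The files give only the identifiers of the gene set, and 0 of 15314 matched the table of RefSeq genes. The tables and text of the study name 56 identifiers, and 0 of the members are among them. Gene lists for fat body and haemolymph proteins, head glands, glia, muscle, blood cells, cuticle, fat metabolism, juvenile hormone and detoxification could therefore not be read in these data, and the part of other tissues was not tested. In brain pools, a change in the number of cells of a type and a change in RNA per cell cannot be told apart. Of the genes that could be named, 51 reached the level of the rule, and 6 of them had an r with vitellogenin above 0 by CPM, about the share of the other genes of that level (11.6%). The neuropeptide precursor gene GB50651 (prohormone-3), at a mean of 541 CPM, had an r of -0.80, and GB44988 (prohormone-2-like) had an r of -0.73. The visual genes went both ways, with an r of 0.47 for GB45512 (ninaC), 0.35 for GB41297 (TRP) and 0.51 for GB43718 (myosin-IIIb), but -0.68 for GB42579 (norpA, a phospholipase C), -0.52 for GB42762 (inaD, a scaffold protein) and -0.64 for GB41723 (chaoptin). By CPM the other genes of that level had a median r of -0.478 and a 10th percentile of -0.699, so norpA, inaD and chaoptin lay among the bulk. With TMM scaling, which is described below, these visual genes had an r of 0.59, 0.50, 0.62, -0.31, -0.38 and -0.32 in the same order. The median of the other genes was then -0.113. All these values include the library that is described next as standing apart. Without it the r of ninaC, TRP and myosin-IIIb by CPM was -0.52, -0.53 and -0.72, against a median of -0.456 in the other genes.

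The libraries held between 26636844 and 51745752 counts in genes. Vitellogenin took 0.840% to 9.96% of them, and the 100 members together took 1.25% to 3.86%. Library scaling factors of edgeR's TMM method, which sets the bulk of genes equal between libraries, were 0.711 to 0.915 in Experiment 1 and 1.127 to 1.293 in Experiment 2, so values are given both as CPM and, where the scaling matters, as TMM-scaled CPM. One library stood apart. In seminal fluid replicate C of Experiment 2, 18.1% of reads lay in no annotated gene, against 19.7% to 20.7% in the other libraries of that experiment, and the 4 photoreceptor rows summed to 304 CPM, against 81.1 to 204 CPM in the other 17 libraries. This library alone held 49.1% of the squared deviations of vitellogenin, and results that rest on it are given with and without it.

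Vitellogenin itself varied widely between pools given the same treatment. In the mock group it was 29759, 58395 and 99623 CPM in replicates A, B and C. In the semen group of Experiment 1 it was 59153, 41144 and 47550 CPM, and in the seminal fluid group 71418, 65201 and 58850 CPM. The highest mock pool thus held 3.35 times the level of the lowest, whereas the semen and seminal fluid groups of that experiment spanned 1.44 and 1.21 times. In Experiment 2 it was 47391, 22032 and 25987 CPM after saline, and 9263, 9574 and 14029 CPM after semen. After seminal fluid it was 9489, 8401 and 88966 CPM. The seminal fluid pools of Experiment 2 therefore spanned 10.6 times, with replicate C at the level of Experiment 1 and the other 2 pools at the level of the semen group.

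**Figure D1:**
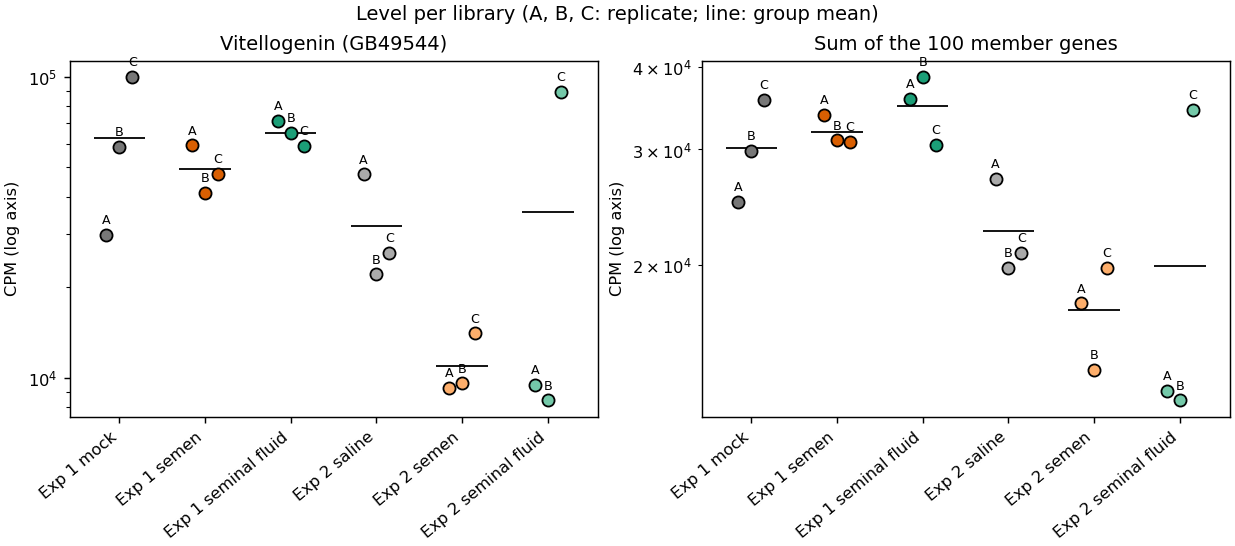
Vitellogenin (left) and the sum of the 100 member genes (right) in CPM on log axes, with 1 point per library of 3 pooled brains, letters for replicates and a line for the mean of each group of 3 libraries. Seminal fluid replicate C of Experiment 2 lies at 88966 CPM of vitellogenin, against 9489 and 8401 CPM in the other pools of its group, and the members' sum shows the same library apart.

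The members followed these swings by choice of the rule. Their r with vitellogenin was 0.752 to 0.969, with a median of 0.852, against a median of -0.478 in the 8470 other genes of that level. Just inside the limit lay GB55537 at 0.757, GB46223 at 0.752 and GB53424 at 0.752, and just outside it GB50930 at 0.747, GB50482 at 0.747 and GB44204 at 0.746, so the limit cuts a continuous series. With TMM-scaled CPM the members' median was 0.897 and that of the other genes -0.113. A member rose by a median of 0.40 log2 units for each log2 unit of vitellogenin (0.14 to 0.92), which means that most members moved much less than vitellogenin itself. The SD of a member's deviations had a median of 0.434 log2 units, against 0.185 in the other genes. Members were of moderate abundance, with mean levels of 5.53 to 3549 CPM and a median of 69.0 CPM, against 33.3 CPM in the other genes.

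The 3 members closest to vitellogenin show the pattern library by library. These and the other single members below were picked out after their values were seen. GB44344, with the highest r (0.969), was at 19.2, 30.9 and 36.4 CPM in mock replicates A to C, at 24.0, 23.3 and 25.3 CPM after semen and at 31.0, 33.6 and 29.4 CPM after seminal fluid in Experiment 1. In Experiment 2 it was at 30.1, 24.5 and 23.5 CPM after saline, 19.8, 17.1 and 25.9 CPM after semen, and 14.4, 15.3 and 55.9 CPM after seminal fluid. Its lowest and highest libraries are both in the seminal fluid group of Experiment 2, and it was lowest in mock replicate A within Experiment 1. GB44710 (r = 0.960) was at 20.5, 31.1 and 53.4 CPM in the mock pools, 42.9, 42.0 and 46.8 CPM after semen and 57.3, 48.2 and 40.8 CPM after seminal fluid in Experiment 1. In Experiment 2 it was at 46.1, 31.9 and 34.8 CPM after saline, 18.9, 15.8 and 29.7 CPM after semen and 16.8, 20.5 and 88.7 CPM after seminal fluid. By CPM the semen pools of Experiment 2 all lay below the saline pools for this gene. With TMM scaling the groups overlap, as the factor is 1.141 for semen replicate C and 1.246 for saline replicate B.

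GB40077 (r = 0.960) moved almost as steeply as vitellogenin, by 0.92 log2 units for each log2 unit. It was at 138, 213 and 410 CPM in the mock pools, at 175, 214 and 240 CPM after semen and at 260, 347 and 233 CPM after seminal fluid in Experiment 1. In Experiment 2 it was at 624, 327 and 329 CPM after saline, 148, 172 and 250 CPM after semen, and 159, 184 and 1542 CPM after seminal fluid. Unlike vitellogenin, it was higher in every saline pool of Experiment 2 than in 2 of the mock pools, and its 6 group means had an r with those of vitellogenin of 0.05 by CPM and 0.60 with TMM scaling.

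Several members were far more abundant. GB50883, the most abundant with a mean of 3549 CPM, was at 3517 to 4807 CPM in the mock pools, 4908 to 5827 CPM after semen and 4412 to 6384 CPM after seminal fluid in Experiment 1. In Experiment 2 it was at 1605 to 2226 CPM after saline, 1492 to 3241 CPM after semen and 1402, 1459 and 3301 CPM after seminal fluid. All 9 pools of Experiment 1 lay above all 9 of Experiment 2 for this gene. GB43112, with a mean of 2098 CPM, was at 2148 to 2879 CPM in the mock pools, 2581 to 3782 CPM after semen and 2980 to 4516 CPM after seminal fluid in Experiment 1, and at 565 to 1518 CPM in the 9 pools of Experiment 2. Here too the experiments did not overlap.

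The deviations can be read per library. Averaged over the 100 members, mock replicates A, B and C lay -0.28, -0.02 and 0.30 log2 units from their group mean, and saline replicates 0.30, -0.19 and -0.11. The semen replicates lay at -0.03, 0.04 and -0.01 in Experiment 1 and at -0.06, -0.14 and 0.20 in Experiment 2. The seminal fluid replicates lay at -0.05, 0.18 and -0.13 in Experiment 1 and at -0.51, -0.48 and 0.99 in Experiment 2. In seminal fluid replicate C of Experiment 2 all 100 members were above their group mean, against 12.6% of the other genes, and 99 of them had their largest deviation there. The remaining member had it in saline replicate A.

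**Figure D2:**
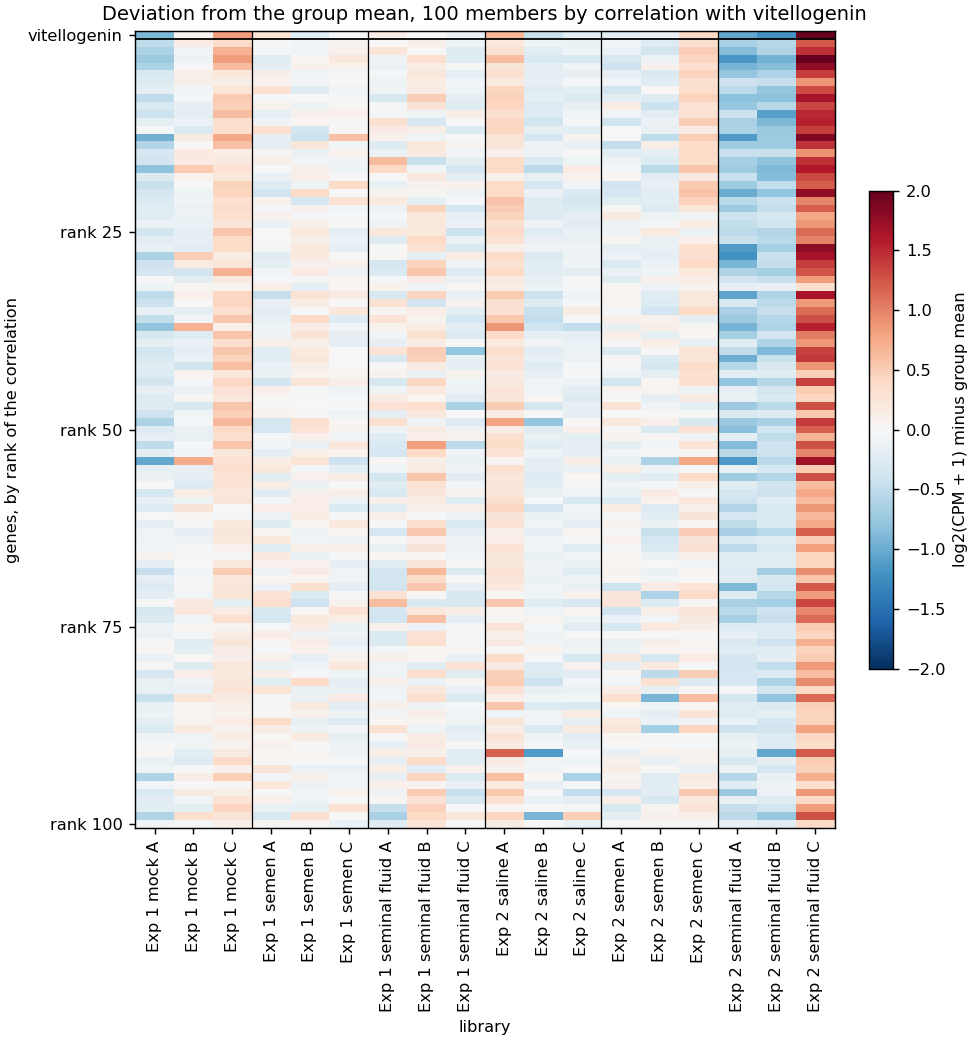
Deviation of log2(CPM + 1) from the mean of the treatment group for vitellogenin (top row) and the 100 members, ordered downwards by r with vitellogenin, in the 18 libraries; red is above and blue below the group mean. All 100 members are above their group mean in seminal fluid replicate C of Experiment 2, and weaker bands of the same direction are seen in mock replicate C, saline replicate A and semen replicate C of Experiment 2. Seminal fluid replicate B of Experiment 1 also shows such a band, with 80 members above their group mean, although vitellogenin deviated there by only 0.005.

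Leaving out seminal fluid replicate C of Experiment 2, the members' r with vitellogenin had a median of 0.586 (0.140 to 0.877), and 68 of 100 stayed above 0.5, against 1.40% of the other genes. Only 47 members were among the 100 chosen when the rule was run without this library. Within Experiment 1 the median was 0.545, with 99 members above 0 and 59 above 0.5. Within Experiment 2 it was 0.951 with that library and 0.709 without it. Both in Experiment 1 and in the 8 other libraries of Experiment 2, 53 members had an r above 0.5, against 57 of the 8470 other genes (0.673%). These subsets share libraries with those that chose the members, so the shares describe how evenly the pattern is spread and are no independent check.

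**Figure D3:**
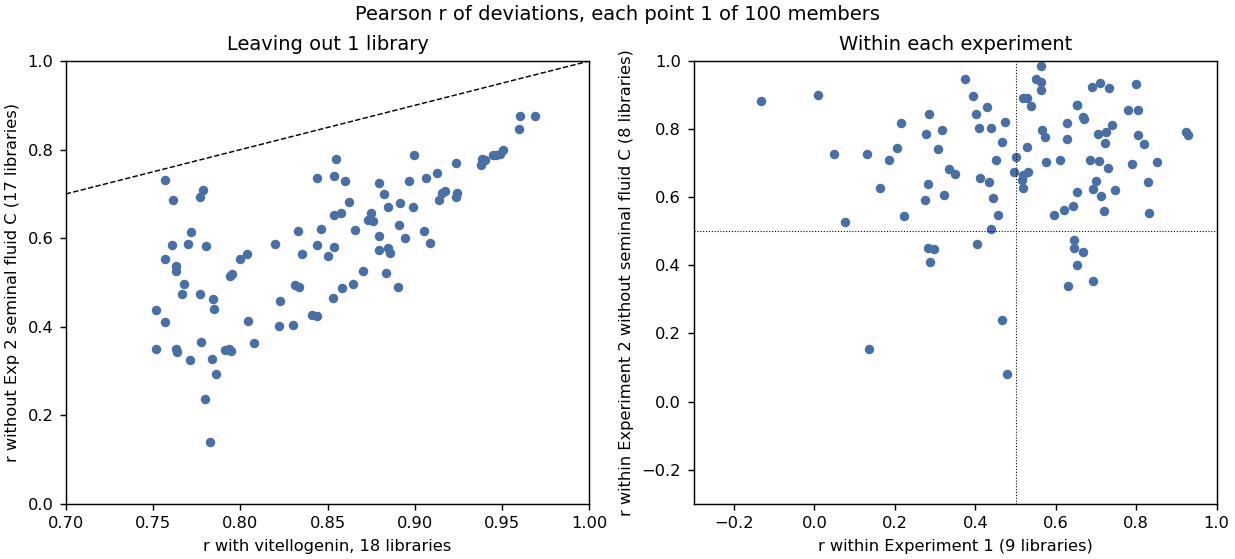
Pearson's r with vitellogenin for each of the 100 members: over 18 libraries against the 17 left without seminal fluid replicate C of Experiment 2 (left, dashed line at equality), and within Experiment 1 against the other 8 libraries of Experiment 2 (right, dotted lines at 0.5). Without that library r is lower for the members, with a median of 0.586, and 53 members exceed 0.5 on both axes of the right panel.

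The positive r of the photoreceptor rows with vitellogenin was seen only with that library. Over 18 libraries the deviations of vitellogenin and of the photoreceptor mean had an r of 0.54 by CPM, and over the 17 others -0.63. Over those 17 the other genes of the level of the rule had a median r with vitellogenin of -0.456 and a 10th percentile of -0.692. A negative r by CPM is therefore not particular to the photoreceptor rows. The mean of the members had an r of 0.97 with vitellogenin and 0.65 with the photoreceptor mean over 18 libraries. Over 17 libraries these were 0.87 and -0.35. Every member's r with the photoreceptor mean (0.229 to 0.794, median 0.570) thus includes a library in which both were high, and the part of eye RNA in that pool was not tested.

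The members also moved with one another. Over the 4950 pairs of members the median r of their deviations was 0.779 with 18 libraries and 0.478 without seminal fluid replicate C of Experiment 2, where 94.1% of pairs were above 0. In Experiment 1 the median was 0.477. Consecutive identifiers were carried by 8 members, in the pairs GB43575 and GB43576, GB45700 and GB45701, GB45775 and GB45776, and GB54163 and GB54164, with an r of 0.944 to 0.987 within a pair. How many of 100 genes taken at random would carry them was not tested. No positions or sequences were at hand for these pairs, so whether they are separate genes with separate measurements was not tested.

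The pools with the most and the least vitellogenin can be set side by side within each group. In mock replicate C, with 3.35 times the vitellogenin CPM of replicate A, 97 of 100 members were higher than in replicate A, by a median of 1.42 times, against 17.7% of the other genes. With TMM scaling all 100 were higher, by a median of 1.66 times, against 48.6% of the other genes. In saline replicate A against replicate B, 97 members were higher by CPM and 100 by TMM-scaled CPM, by a median of 1.34 and 1.46 times. In seminal fluid replicate C against B of Experiment 2, all 100 were higher on both scales, by a median of 2.65 and 3.01 times. In the other groups, where vitellogenin differed less, fewer members were higher in the pool with more of it. Among those groups the counts did not follow the size of the vitellogenin difference. With TMM scaling 82 were higher in semen replicate C than A of Experiment 2, against 51.6% of the other genes. In Experiment 1, 86 were higher in seminal fluid replicate A than C and 68 in semen replicate A than B, against 47.4% and 46.1%. By CPM these 3 counts were 74, 60 and 40, against 41.8%, 19.4% and 18.5% of the other genes. The last count thus moved with the scaling, but it exceeded the share of the other genes on both scales.

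The group means, whose differences were not used in the choice, also followed vitellogenin. Seminal fluid replicate C of Experiment 2, which held 49.1% of the squared vitellogenin deviations, enters 1 of them. They are therefore not free of the choice. Over the 6 group means of TMM-scaled values the members' r with vitellogenin had a median of 0.931, and 94 of 100 were above 0, against a median of -0.261 and 46.3% in the other genes. Without the scaling the median was 0.797 and 75 were above 0, against a median of -0.824 and 16.5% in the other genes. On TMM-scaled means, 71 members were highest in the seminal fluid group of Experiment 1, against 25.6% of the other genes, and 74 were lowest in the semen group of Experiment 2, against 7.07%. Without seminal fluid replicate C of Experiment 2 the first count was 73, whereas 91 were then lowest in the seminal fluid group of Experiment 2, against 28.9% of the other genes. In replicates A and B of that group 0 members lay above the group mean, so the choice itself favours the count of 91. The 6 means differ between experiments as well as treatments, so this order cannot be read as an order of treatments.

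**Figure D4:**
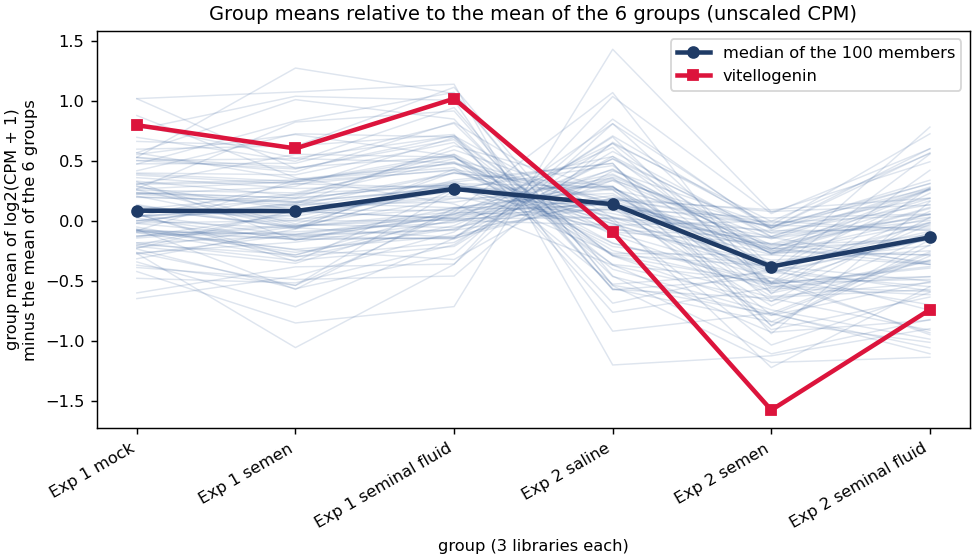
Group means of log2(CPM + 1), each minus the mean of the 6 groups, for vitellogenin (red), the 100 members (thin lines) and their median (dark blue), without TMM scaling and with all 18 libraries. Vitellogenin and the members' median are lowest in the semen group of Experiment 2 and highest in the seminal fluid group of Experiment 1, and single members spread widely around the median in the saline group.

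In Experiment 1, no member passed the test after semen or seminal fluid. At an adjusted p under 0.1 from edgeR's quasi-likelihood test, 0 of 100 members were called after semen against mock, where 0.128% of all genes tested were called. Seminal fluid against mock gave 0 members, with 0.162% of all genes called, and seminal fluid against semen 0 members and 0% of all genes. At an unadjusted p under 0.05 there were 4, 15 and 13 members, against 5.1%, 12.8% and 5.78% of all genes. DESeq2 called 0, 3 and 0 of them, the 3 being higher after seminal fluid, where it called 1.51% of all genes higher, and limma-voom called 0 in each comparison. The members' median log2 fold change was -0.05 after semen against mock, 0.22 after seminal fluid against mock and 0.25 for seminal fluid against semen, and 39, 86 and 95 of them were above 0, while the median of all genes stayed within 0.01 of 0. The seminal fluid pools all lay above the mock pools for 6 members, against 8.68% of the genes of that level. Vitellogenin after semen stood at a log2 fold change of -0.35 from mock (SE 0.42, adjusted p = 0.983), which turned to 0.23 without mock replicate C. After seminal fluid it stood at 0.13 (adjusted p = 0.926), which turned to -0.23 without mock replicate A and to -0.03 without seminal fluid replicate A.

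In Experiment 2 the members were lower after semen than after saline without passing the test. Their median log2 fold change was -0.45, and 94 of 100 were below 0, against a median of -0.01 over all genes. With edgeR 0 of 100 were called, 0.328% of all genes tested were, and 4 members had an unadjusted p under 0.05, against 9.41% of all genes. By TMM-scaled values the semen pools all lay below the saline pools for 42 members, against 6.00% of the genes of that level. The fold change of vitellogenin, -1.53 on the log2 scale (SE 0.87), had an adjusted p of 0.647. DESeq2 and limma-voom also called 0 members in this comparison.

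Seminal fluid against saline gave a median log2 fold change of -0.07, with 0 members called by edgeR, 0.429% of all genes called and 1 member at an unadjusted p under 0.05, against 10.5% of all genes. Seminal fluid against semen gave a median of 0.46, with 82 members above 0, 0 called, 0.0084% of all genes called and 3 at an unadjusted p under 0.05, against 18.6% of all genes. DESeq2 and limma-voom called 0 members in both. Vitellogenin stood at a log2 fold change of 0.22 from saline (SE 0.85, adjusted p = 0.926). From semen it stood at 1.75 (SE 0.88, adjusted p = 0.312). These values rest on replicate C of the seminal fluid group, in which the members reached a median of 2.65 times the CPM of replicate B. The members' biological coefficient of variation in this experiment had a median of 0.368 with replicate C, against 0.125 over all genes, and 0.187 without it.

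Without seminal fluid replicate C, members were lower in both treated groups of Experiment 2. These values were computed after the library had been seen to stand apart. The rule itself favours this after seminal fluid. Replicates A, B and C of that group held 10.4%, 14.3% and 49.1% of the squared vitellogenin deviations. In them 0, 0 and 100 members lay above the group mean. Leaving out C thus lowers the group mean for these members and narrows their spread, on which the calls after semen also depend. This holds for every comparison below that leaves out C, so these counts are description. After semen 10 members fell against saline by edgeR, with 0.203% of all genes called lower, and 50 had an unadjusted p under 0.05, against 10.4% of all genes. After seminal fluid 18 fell by edgeR, with 0.414% of all genes called lower, and all 100 fold changes were below 0. DESeq2 on the same libraries called 40 members lower after semen, with 1.2% of all genes, and 70 after seminal fluid, with 2.53%. Of the members called by edgeR 9 were shared by both comparisons, which have the saline pools in common. The medians were -0.45 after semen and -0.91 after seminal fluid. No member was called higher by either tool. Seminal fluid against semen gave 0 called by edgeR, with 25 members at an unadjusted p under 0.05 against 17% of all genes, whereas DESeq2 called 16 members lower, with 3.58% of all genes. The members' median was -0.37, opposite in sign to that with replicate C. Vitellogenin was not called by edgeR in these fits. Its log2 fold change was -1.53 after semen with an SE of 0.34 and an adjusted p of 0.135, and -1.95 after seminal fluid with an SE of 0.40 and an adjusted p of 0.111. Between seminal fluid and semen it was -0.42 with an SE of 0.37 and an adjusted p of 0.577. The seminal fluid group has 2 libraries here.

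GB47279, among the members that fell in both, was at 225, 147 and 197 CPM after saline, 58.3, 40.1 and 81.9 CPM after semen, and 48.2, 64.8 and 392 CPM after seminal fluid. Its semen pools and its first 2 seminal fluid pools were all below the lowest saline pool, and replicate C of seminal fluid was above the highest. With all libraries, semen gave it a log2 fold change of -1.63 from saline (SE 0.75), with an adjusted p of 0.554. Without seminal fluid replicate C the same value of -1.63 carried an SE of 0.29 and an adjusted p of 0.0797. Seminal fluid then gave -1.86 (SE 0.34), with an adjusted p of 0.0779. In Experiment 1 it was at 37.4 to 126 CPM in the mock pools, 44.8 to 91.8 CPM after semen and 88.1 to 99.0 CPM after seminal fluid, so the treated pools lay within the range of the mock pools. For GB44710, described above, the value after semen against saline was -0.79 (SE 0.62), with an adjusted p of 0.752.

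**Figure D5:**
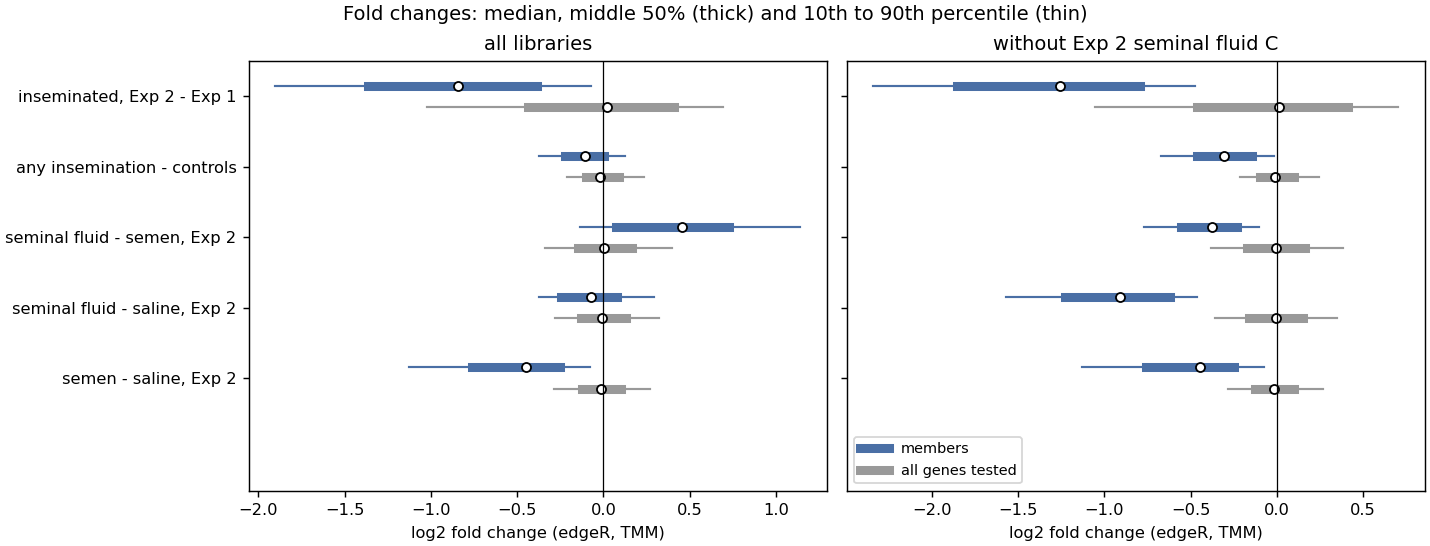
Distribution of log2 fold changes (edgeR, TMM) of the 100 members (blue) and of all genes tested (grey) in 5 comparisons, with all libraries (left) and without seminal fluid replicate C of Experiment 2 (right). Points are medians, thick bars the middle 50% of genes and thin bars the 10th to 90th percentile. The members' median for seminal fluid against semen in Experiment 2 is 0.46 with that library and -0.37 without it, and that for inseminated queens of Experiment 2 against Experiment 1 is below 0 in both panels.

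Over both experiments, any insemination against the controls called 0 members with edgeR, where 2.6% of all genes tested were called, and 4 members had an unadjusted p under 0.05, against 14.5% of all genes. Their median log2 fold change was -0.11, and that of vitellogenin was -0.38 (adjusted p = 0.724). DESeq2 and limma-voom called 0 members here too. Without seminal fluid replicate C of Experiment 2, 14 members fell by edgeR, with 0.906% of all genes called lower, and 31 by DESeq2, with 2.21%. In the edgeR fit vitellogenin fell by 0.92 on the log2 scale (SE 0.25, adjusted p = 0.0933). The difference between the experiments in this response, tested as an interaction, called 0 members with edgeR, DESeq2 and limma-voom, 0.0083% of all genes by edgeR and 2 members at an unadjusted p under 0.05, against 4.7% of all genes. The members' median of this difference was -0.37. Without that library edgeR again called 0, 63 members had an unadjusted p under 0.05, against 6.21% of all genes, all 100 lay below 0 and the median was -0.76. DESeq2 on those libraries called 17 members, all lower, with 0.291% of all genes, so whether single members passed this test depended on the tool.

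The inseminated queens of the 2 experiments did differ. With semen and seminal fluid groups averaged, 69 members were lower and 2 were higher in Experiment 2 than in Experiment 1. Of all genes tested 33.4% were lower and 36.4% were higher in this comparison, so calls were common in both directions over all genes, and those of the members were mostly lower. The members' median log2 fold change was -0.85, against 0.02 over all genes. Without TMM scaling the median of all genes moved to 0.58 and that of the members to -0.32. Relative to all genes the members were thus lower on both scales. Vitellogenin fell by 2.05 on the log2 scale (SE 0.53, adjusted p = 0.00326). Without seminal fluid replicate C, 94 members were lower and 0 higher, with 33.7% and 35.5% of all genes, the median was -1.26, and vitellogenin fell by 3.13 (SE 0.35, adjusted p = 3.13e-06).

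In each pair of groups most called members were lower in Experiment 2. Between the semen groups 63 members were lower and 0 higher in Experiment 2, with 25% of all genes called lower and 24.7% higher, a members' median of -0.93 and a fall of vitellogenin by 2.70 (adjusted p = 0.0121). Between the seminal fluid groups 52 were lower and 1 higher, with 30% of all genes lower and 34.1% higher and a median of -0.71, and vitellogenin, at -1.39 (adjusted p = 0.12), was not called. Without replicate C of Experiment 2 in that pair, the members' median was -1.53, and vitellogenin fell by 3.58 (adjusted p = 7.97e-05). Between saline and mock 36 were lower and 1 higher, with 24% of all genes lower and 26.5% higher and a median of -0.46, and vitellogenin, at -1.50 (adjusted p = 0.116), was not called. In the fit without that library the members' median was -0.48, and vitellogenin was called at -1.52 (adjusted p = 0.0107). Of the single members, GB43112 fell by 2.35 (SE 0.28, adjusted p = 3.42e-06) and GB50883 by 1.76 (SE 0.27, adjusted p = 3.86e-05) between the inseminated groups. GB44710 fell by 1.15 (SE 0.39, adjusted p = 0.0155) and GB44344 by 0.70 (SE 0.31, adjusted p = 0.057). The call of GB44344 was lost, with an adjusted p of up to 0.118, on omission of semen replicate A of Experiment 1 or, in Experiment 2, of semen replicate B, of seminal fluid replicate A, or of its replicate B. The 2 members that were higher, GB53179 and GB46223, had log2 fold changes of 1.05 (adjusted p = 0.0511) and 0.70 (adjusted p = 0.0968). Without seminal fluid replicate C these were 0.21 and 0.14 and were not called. Experiments differ in any batch of animals, extraction or dissection, and these cannot be told apart.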

How the data were processed

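The deposited values are raw counts of single-end reads per gene in 18 libraries of brain RNA. The authors trimmed reads with Trimmomatic, removed ribosomal reads with SortMeRNA, aligned with STAR 2.4.2a to honeybee assembly 4.5, counted with htseq-count and tested with DESeq2 1.10.1, and did not normalize the deposited counts. The library kit marks strand, but the strand setting and overlap mode of counting are not given in the sources used here. Rows that name no gene were left out: 16.6% to 20.7% of a library's total lay in no annotated gene, 4.00% to 4.63% was ambiguous and 5.69% to 8.21% aligned to several places.

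The choice of members followed the rule in the opening of the report, and r is a description throughout. Group comparisons used edgeR 4.0.16 in R 4.3.3, with TMM scaling and a two-sided quasi-likelihood test of the group as only term, over the 9 libraries of an experiment or all 18. A gene entered a test with 10 or more counts in 3 or more libraries, which all 100 members had. P-values were adjusted by Benjamini-Hochberg over all genes tested and called under 0.1. SE is a standard error derived from the test, as the absolute log2 fold change divided by the square root of the F statistic. Alternatives were DESeq2 1.42.0, limma-voom (limma 3.58.1), other scalings, filters and thresholds, other sets of libraries, the replicate letter as a block and each library left out. No scaling factor, single pairs of groups between experiments and DESeq2 without seminal fluid replicate C of Experiment 2 were chosen after seeing the data. The tests were also run on simulated counts with planted fold changes. No library was made to stand apart in them, so that run says nothing of calls that turn on a single library. Replicates are separate pools of brains from queens of a single colony.

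The members and gene lists were chosen with earlier results of these data known. Members with a name were to be named by rank of r, list and call. As none had a name, the 3 members with the highest r, the 2 most abundant and single others were picked after their values were seen. No sequences, names or positions of the members were in the tables used here.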

Additional observations from a re-analysis of the deposited data

How the results depend on the processing

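Counts of members called changed most with the library set and with DESeq2. DESeq2 called 3 members in seminal fluid against mock, and leaving out single libraries gave 0 to 1 (1 without mock replicate C). In semen against saline of Experiment 2, fitting the 6 libraries of the comparison alone called 4, and leaving out single libraries gave 0 to 10. In seminal fluid against saline single omissions gave 0 to 18, and in any insemination against controls 0 to 14, the highest count in each case being that without seminal fluid replicate C. The choice of the members favours these highest counts, as described above. DESeq2 without that library called 40 members in semen against saline, 70 in seminal fluid against saline, 16 in seminal fluid against semen, 31 in any insemination against controls and 17 in the interaction, all more than edgeR on the same libraries (10, 18, 0, 14 and 0). Of all genes it called 1.2%, 2.53%, 3.58%, 2.21% and 0.291% lower in these comparisons, and the cause of the difference between tools was not tested. Between experiments, the control groups alone gave 37 members, and single omissions gave 63 to 94. The rule kept 30 of the 100 members in Experiment 1 alone and 66 in Experiment 2 alone, 47 to 97 with a library left out, 82 with TMM scaling and 95 with vitellogenin out of the totals.

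The log2 fold change of vitellogenin in seminal fluid against saline turned to -0.68 with limma-voom, -0.59 with a replicate block and -1.95 with DESeq2 without seminal fluid replicate C, and ranged from -1.95 to 0.70 over single omissions. In seminal fluid against semen of Experiment 2 it turned to -0.43 with DESeq2 without that library and ranged from -0.42 to 2.23. In Experiment 1 it ranged from -0.71 to 0.23 for semen against mock and from -0.23 to 0.71 for seminal fluid against mock. The call of GB44344 between experiments was lost under 4 of 18 omissions.

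Between groups of an experiment, the deviations of libraries that share a letter had an r of -0.285 to 0.273. With 3 libraries per group, these values cannot settle whether the letter marks a pairing. With the letter as a replicate block, 0 members were called in the 6 comparisons within experiments and 75 between experiments, against 71 without it. Members averaged 5.53 CPM or more, and the limit is 3 pools per group.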
